A study of Labrus bergylta with 24 samples.

Results

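Segment 1 is the most anterior of the 4 consecutive parts that make up the whole intestine of the ballan wrasse (Labrus bergylta), a fish that has no stomach. Its members are the libraries whose label gives intestinal segment 1, which are 6 of the 24 libraries of the series, 1 from each of 6 fish. They were set against the 18 libraries of segments 2, 3 and 4 of the same 6 fish, where segment 4 is the hind-gut. All fish came from a commercial farm, and the labels give no genotype, age, diet or treatment that would distinguish them. RNA was extracted from homogenized tissue of each segment, so that epithelium, muscle, nerve and immune cells were read together. The text of the study's methods gives other numbers of fish and libraries than the labels, and the labels were followed.

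In vertebrates that have a stomach, acid and pepsin act on food before the pylorus passes it on in small portions. Where the stomach has been lost, swallowed food reaches the first part of the intestine directly, and the anterior intestine of fish also receives bile and pancreatic enzymes. This region is known for a dense brush border that carries digestive enzymes, for uptake of fat, sugars, amino acids and small peptides, and for endocrine cells that release hormones such as cholecystokinin, which makes the gallbladder contract and the pancreas secrete. The hind-gut of fish is known for taking up whole proteins into lysosome-rich cells. HOX genes, which are switched on in an ordered way along the body axis, and GATA factors mark position along the gut tube.

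Each value is a normalized count, which is the number of reads of a gene model scaled by the size factor of its library. For each fish the mean of log2(value + 1) over segments 2, 3 and 4 was subtracted from log2(value + 1) of segment 1, and limma tested this log2 difference over the 6 fish, two-sided, with Benjamini-Hochberg adjustment. A gene model was called at an adjusted p under 0.05. Tested were 19515 of 27392 gene models, those that reached a value of 10 in 6 or more libraries, and 17577 of them carry a gene name. Segment 1 has 6 libraries, so a gene model that is high there can pass this filter through segment 1 alone. For every gene model below whose 6 segment 1 values all reached 10, segment 1 was enough. The 259 gene models that reached 10 in exactly 6 libraries had a median of 7.3 for their mean value over all libraries, and the 262 that reached it in exactly 5, and were left out, had 6.67. Differences are given as the mean over 6 fish ± the moderated standard error of limma. In this error, the spread between fish is drawn toward that of gene models of similar level. A positive difference means higher in segment 1, and the scale understates the change of low genes. To separate genes that are particular to segment 1 from genes that are only low or high in segment 4, the same test was run on the difference from the highest later segment of each fish, called where it was above 0, and from the lowest later segment, called where it was below 0. P-values of limma rest on the same moderated spread between these fish. Every difference called below from the mean, the highest or the lowest had 1 sign in all 6 fish unless stated.

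Recovered reads numbered 16492860 to 23760122 per segment 1 library and 7867202 to 29650314 over all libraries. When each library was compared with the mean profile of every segment in the other 5 fish, 23 of 24 matched their own segment best, all 6 segment 1 libraries among them (correlations of 0.399 to 0.511 across genes). The exception was the segment 2 library of fish 2, whose correlation was 0.325 with segment 1 and 0.243 with its own segment. The segment 2 and segment 3 libraries of fish 6 held genes of their neighbours: the ileal bile acid binding protein Fabp6 (LABE_00051334) had 70032 in segment 2 of fish 6, and the chitinase Chia (LABE_00056104) had 32043 in its segment 3. For some of the results that rest on these fish, values without them are therefore also given. Epithelial markers were high in segment 1, with 22115 to 33437 for VIL1 of the brush border and 299109 to 600810 for APOB of fat export. Segment 1 medians of VIL1, APOB and ANPEP were above those of the later libraries. Those of FABP2 and CDX1, each summed over 2 gene models, were 83378 and 6804, against 88108 and 6989 in the later libraries. Within fish, the CDX1 gene model LABE_00045324 was higher in segment 1 than the mean of the later segments. Its limma differences were 0.54 without fish 2 and 0.43 without fish 6 (adjusted p = 0.00193 and 0.00537). Of the oesophageal markers, TP63 reached at most 8.64 and SOX2 at most 11.8 in segment 1 libraries. The keratin KRT13, summed over 5 gene models, had 1568 to 4572 (median 1848) in segment 1, against 974 to 8005 (median 3141) in the later libraries. In segment 1 the liver markers FGB and TTR reached at most 3.7 and 9.17. F2, summed over 2 gene models, reached at most 21 there, against 30.1 in the later libraries, and no gene model was named ALB. No gene model carried the names of the stomach markers ATP4A, ATP4B, PGC and GIF. A list of stomach genes held 6 gene models, of which 1 was tested and was not called. The sums of this list were 82.8 to 157 in segment 1. They were 46.7 to 116, 86.1 to 130 and 52.3 to 130 in segments 2, 3 and 4. The pancreatic carboxypeptidase CPA1 had 90.2 to 18443 (median 6371) in segment 1, against 119 to 40434 (median 7941) in the later libraries, and its part in the results was not tested.

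Segment 1 differed from the mean of the later segments in gene models of both directions. At an adjusted p under 0.05, 2771 gene models (14.2% of those tested) were higher in segment 1 and 2554 (13.1%) were lower, and the median difference of all tested gene models was -0.02. Fewer were at an extreme in segment 1: 546 (2.80%) were above the highest later segment and 457 (2.34%) were below the lowest. Of these, 324 and 264 were also called against each single later segment. Taking the highest or lowest shifts the differences of all gene models, with medians of -0.309 and 0.276, and each measure was adjusted on its own. A call by these measures is therefore not always a call against each single segment, and this also holds for the list shares below. Against the neighbouring segment 2, 428 gene models were higher (2.19%) and 319 lower (1.63%). Against segment 3 the counts were 1965 (10.1%) and 1684 (8.63%), and against segment 4 they were 3265 (16.7%) and 3396 (17.4%). These comparisons share the segment 1 libraries and are set side by side only. Over every pair of libraries, 56 gene models (0.287%) had all 6 segment 1 values above all 18 later values and 76 (0.389%) had all of them below. Leaving out single fish gave 372 to 509 gene models above the highest later segment. Below the lowest there were 256 to 497, with 302 without fish 4 and 256 without fish 6. For segment 2 there were 53 higher and 18 lower without the filter on low values, 39 and 93 when fish were not paired, and 538 and 443 without fish 2, whose segment 2 library stood apart. They also moved by over 1.5 times without fish 3, 4, 5 or 6, to 205, 196, 237 and 200 higher and 117, 128, 173 and 97 lower, and against segment 3 without fish 3, to 1209 higher and 1037 lower, and without fish 6, to 1112 lower.

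**Figure D1:**
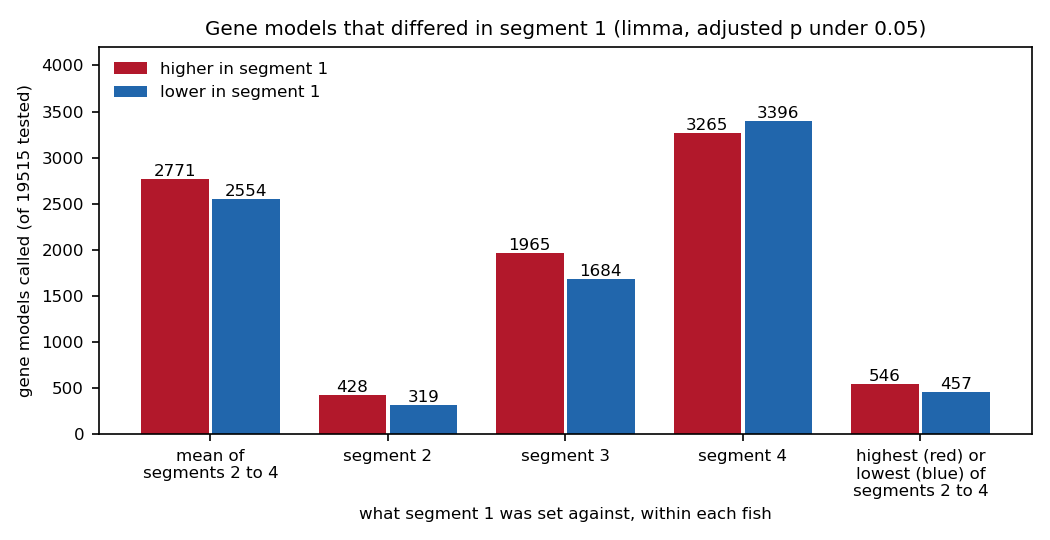
Number of gene models called higher (red) or lower (blue) in segment 1, on the vertical axis, by what segment 1 was set against within each fish, on the horizontal axis. The counts against single segments were 428 and 319 for segment 2, 1965 and 1684 for segment 3 and 3265 and 3396 for segment 4, and 546 and 457 gene models were above the highest or below the lowest later segment.

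Secreted proteins of the mucosal surface were among the genes with the largest differences in segment 1. DMBT1 (LABE_00069462) encodes a secreted scavenger receptor cysteine-rich protein that binds bacteria and mucus. It had 14835 to 49551 (median 30762) in segment 1, against 10.4 to 445 in the 18 later libraries (medians 157, 26.1 and 27.2 in segments 2, 3 and 4). All 6 segment 1 libraries were above every later library, and the differences were 9.18 ± 0.30, adjusted p = 3.03e-07 from the mean and 7.58 ± 0.50, adjusted p = 1.29e-05 from the highest later segment. A pair of further gene models named DMBT1 shared this pattern, and were picked for their large difference from the highest later segment. LABE_00056301 had 1148 to 5816 (median 2930) in segment 1, against 29.8 to 183 in the later libraries, with a difference of 4.61 ± 0.28, adjusted p = 8.66e-06 from the highest later segment. LABE_00089146 had 67.2 to 782 (median 238) in segment 1, against 2.73 to 33.4 in the later libraries, and for it the difference from the highest later segment was 3.76 ± 0.62, adjusted p = 0.00205. All its segment 1 values were above the filter value of 10, so segment 1 alone was enough to bring it into the test. Another gene model, Dmbt1 (LABE_00059501), had smaller differences from the mean, 2.41 without fish 2 and 2.09 without fish 6. In the same fits LABE_00069462 had 9.33 and 9.49. Reads may be shared between gene models of 1 name, since the sources used here do not say how a read that maps to several of them was counted.

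Acidic chitinase, which splits the chitin of crustacean shells and insect cuticle, was read from a pair of gene models named Chia. LABE_00056099 had 341860 to 573400 (median 471340) in segment 1, against 175 to 258570 in the 18 later libraries (medians 195890, 9204 and 419 in segments 2, 3 and 4). LABE_00056104 had 83902 to 176390 (median 124420) in segment 1, against 21.5 to 55801 in the 18 later libraries (medians 18489, 43.6 and 76.5 in segments 2, 3 and 4). Both were above every later library in all segment 1 libraries, and segment 2 held the next highest level. The differences from the mean were 5.64 ± 0.33, adjusted p = 3.65e-06 for the first and 7.74 ± 0.49, adjusted p = 5.56e-06 for the other, and those from the highest later segment were 1.38 ± 0.17, adjusted p = 0.000454 and 2.72 ± 0.42, adjusted p = 0.00137. For LABE_00056104 fish 6 differed from the other fish, with a segment 3 value of 32043 where the median of segment 3 was 43.6. Without fish 6 its difference from the mean was 8.42.

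OLFM4 (olfactomedin 4, a secreted glycoprotein that in mammals marks intestinal crypts) and CUZD1 (a zymogen granule membrane protein of pancreatic acinar cells in mammals) had a common pattern along the gut, high in segment 1, low in segments 2 and 3 and raised again in segment 4. OLFM4 (LABE_00009047) had 8681 to 66099 (median 41610) in segment 1, against 9.76 to 13288 in the 18 later libraries (medians 849, 23.5 and 7257 in segments 2, 3 and 4), with 5.82 ± 0.41, adjusted p = 9.01e-06 from the mean. For CUZD1 (LABE_00026701) the values were 26894 to 209330 (median 126650) in segment 1, against 50.1 to 48492 in the 18 later libraries (medians 2311, 132 and 25370 in segments 2, 3 and 4), and the difference was 5.67 ± 0.37, adjusted p = 6.01e-06. The lowest segment 1 value of both was that of fish 2, 8681 and 26894, and without fish 2 the differences were 6.03 and 5.85. Both stayed above the highest later segment, by 2.66 ± 0.21, adjusted p = 3.63e-05 for OLFM4 and by 2.47 ± 0.17, adjusted p = 1.73e-05 for CUZD1. The neighbouring gene models Olfm4 (LABE_00009046), and Agt (LABE_00026700) and ptf1a (LABE_00048638), the last 2 chosen after their values were seen, followed the same order of segment medians. Agt encodes angiotensinogen, and ptf1a a transcription factor needed to form acinar cells of the pancreas. Values of ptf1a were 22.8 to 153 (median 88.7) in segment 1, against 0 to 40.1 in the 18 later libraries (medians 3.29, 2.5 and 16.5 in segments 2, 3 and 4), with a difference of 3.66 ± 0.36, adjusted p = 7.26e-05. The IDs of Olfm4 and OLFM4 are consecutive, as are those of Agt and CUZD1, and whether they share reads was not tested.

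Digestive enzymes of the pancreas were spread over all segments. The summed value of 23 gene models for trypsins, chymotrypsins, elastases, carboxypeptidases, carboxyl ester lipase and amylase was 550 to 334094 in segment 1, 59990 to 482469 in segment 2, 64404 to 770127 in segment 3 and 1299 to 511947 in segment 4, so that the segments overlapped over nearly the whole range. Of the exocrine pancreas list 7 of 38 were higher (18.4%, against 14.2% of all gene models) and 3 lower (7.89%, against 13.1%) than the mean of the later segments, with a median difference of -1.51. This list holds 49 gene models and is wider than the 23 above. Its sums were 190379 to 404227 in segment 1, and its 7 higher members need not be digestive enzymes. Cationic trypsin (LABE_00040462), a digestive protease, had 24.6 to 1688 (median 593) in segment 1, against 2.59 to 2452 in the later libraries. Its difference of 1.97 ± 0.49, adjusted p = 0.0144 was called, but edgeR and DESeq2 on the recovered reads gave adjusted p = 0.139 and 0.109, in a range of 0.00909 to 0.234 over the alternatives.

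Other secreted or surface proteins of the anterior end included OVCH2 and MEP1B. OVCH2 (LABE_00007043), named after ovochymase, a trypsin-like protease, had 21754 to 55881 (median 46128) in segment 1, against 15.1 to 15882 in the 18 later libraries (medians 7150, 24.3 and 46.6 in segments 2, 3 and 4) and a difference of 7.16 ± 0.35, adjusted p = 1.64e-06. MEP1B (LABE_00001277) encodes the beta subunit of meprin A, a metalloprotease of the brush border, and had 21567 to 47626 (median 32974) in segment 1, against 9.11 to 14123 in the 18 later libraries (medians 10401, 38.1 and 26.3 in segments 2, 3 and 4), with a difference of 6.82 ± 0.36, adjusted p = 2.27e-06. For both, all 6 segment 1 libraries were above the 18 later ones and segment 2 lay between segment 1 and the low values of segments 3 and 4. In segment 3 of fish 6 they had 8817 and 7419, and without fish 6 the differences were 7.62 and 7.29. Natterin-3 (LABE_00065137), named after a toxin family first found in toadfish venom, had 627 to 4766 (median 1562) in segment 1, against 1.19 to 1353 in the later libraries, where 1 later library reached the lowest segment 1 value, and a difference of 5.95 ± 0.36, adjusted p = 4.18e-06. Of the secreted mucosal defence genes 26 of 93 were higher (28.0%, against 14.2% of all gene models) and 31 lower (33.3%, against 13.1%), and the median difference was -0.35. Above the highest later segment were 15 (16.1%, against 2.80% of all gene models). Gene models of 1 name went in both directions here. Ladderlectin, a fish lectin that binds bacteria, was chosen after its values were seen. LABE_00053483 had 21954 to 115050 (median 82842) in segment 1, against 48.2 to 49441 in the later libraries, a difference of 4.51 ± 0.22, adjusted p = 1.62e-06. LABE_00064509 had 618 to 10845 (median 1585) in segment 1, against 708 to 127030 in the later libraries, a difference of -3.48 ± 0.29, adjusted p = 2.83e-05.

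**Figure D2:**
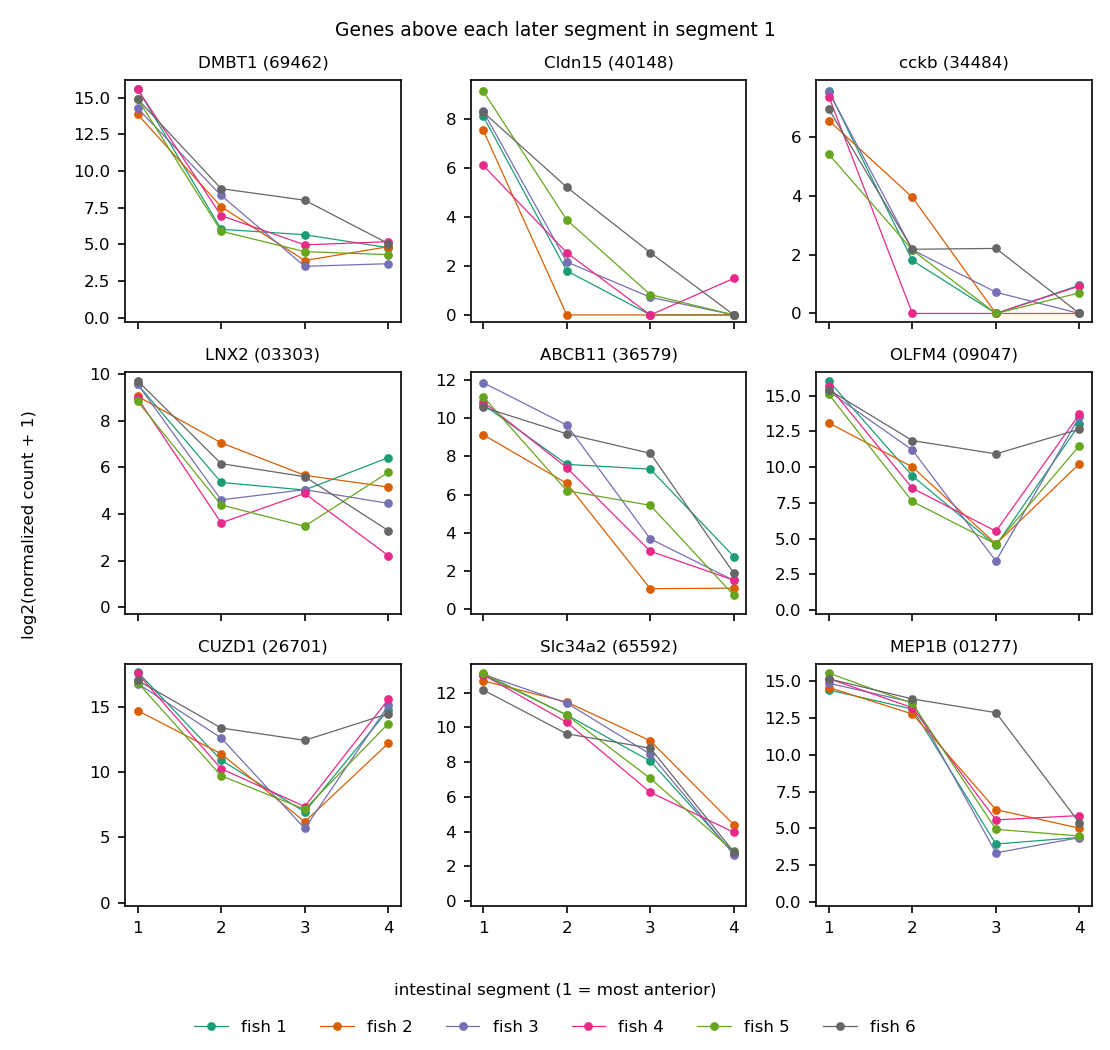
Values of 9 gene models that were above the highest later segment in segment 1, with the last 5 digits of each ID in its panel title. The vertical axis is log2(normalized count + 1), the horizontal axis the segment from anterior to posterior, and each coloured line 1 fish. DMBT1, Cldn15, cckb and LNX2 had their largest step down in the median between segments 1 and 2. MEP1B stepped down over segments 2 and 3 and Slc34a2 over segments 2, 3 and 4, and OLFM4 and CUZD1 were raised again in segment 4.

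Claudins seal the space between epithelial cells or make pores for ions in it, and 1 of them was far higher in segment 1 than in any later segment. Cldn15 (LABE_00040148), in mammals a pore for sodium in the small intestine, had 68.4 to 568 (median 295) in segment 1, against 0 to 36.4 in the 18 later libraries (medians 4.17, 0.325 and 0 in segments 2, 3 and 4). No later library reached the lowest segment 1 value, and the differences were 6.75 ± 0.47, adjusted p = 9.01e-06 from the mean and 5.32 ± 0.60, adjusted p = 0.000264 from the highest later segment. Its segment 1 values were all above the filter value, so segment 1 alone was enough to bring Cldn15 into the test. LNX2 (LABE_00003303), a ubiquitin ligase with PDZ domains, had 451 to 831 (median 637) in segment 1, against 3.64 to 131 in the 18 later libraries (medians 31.5, 31.7 and 27.7 in segments 2, 3 and 4), likewise without overlap, and a difference of 3.39 ± 0.30, adjusted p = 6.78e-05 from the highest later segment. Of the tight junction and claudin genes 12 of 48 were higher (25.0%, against 14.2% of all gene models) and 3 lower (6.25%, against 13.1%) than the mean of the later segments, and 3 (6.25%, against 2.80%) were above the highest. Without fish 6 there were 6 higher, and without fish 3 there was 1 lower. Cingulin (cgn, LABE_00032469), a junction plaque protein, was higher by 0.46 ± 0.07, adjusted p = 0.000649, with 2463 to 4462 (median 3518) in segment 1, against 1971 to 3845 in the later libraries.

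Minerals, salt and bicarbonate were the cargo of several genes at the anterior end. Slc34a2 (LABE_00065592), a sodium phosphate cotransporter of the brush border and chosen after its values were seen, had 4561 to 8893 (median 8391) in segment 1, against 5.37 to 2819 in the 18 later libraries (medians 1675, 309 and 6.2 in segments 2, 3 and 4), without overlap, and a difference of 5.54 ± 0.22, adjusted p = 7.16e-07. Alpl (LABE_00022112), alkaline phosphatase, which frees phosphate from organic compounds, had 15907 to 25508 (median 21722) in segment 1, against 14.4 to 18571 in the 18 later libraries (medians 13224, 95.7 and 29.1 in segments 2, 3 and 4). Here 2 later libraries reached the lowest segment 1 value, and the difference was 5.56 ± 0.34, adjusted p = 4.24e-06. TRPM6 (LABE_00014378, chosen after its values were seen), a channel for magnesium uptake, had 3498 to 4846 (median 4244) in segment 1, against 66.6 to 3132 in the 18 later libraries (medians 2871, 1521 and 86.8 in segments 2, 3 and 4), all below segment 1, and a difference of 2.41 ± 0.20, adjusted p = 2.65e-05. Of the mineral and metal transport list 14 of 63 were higher (22.2%, against 14.2% of all gene models) and 11 lower (17.5%, against 13.1%), and 7 (11.1%, against 2.80%) were above the highest later segment.

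Marine fish drink seawater and take up salt and water from it in the gut while secreting bicarbonate. Genes of chloride entry and exchange were highest in segment 1. Slc12a1 (LABE_00030851), the sodium, potassium and chloride cotransporter, had 44045 to 80197 (median 56964) in segment 1, against 18831 to 51782 in the 18 later libraries (medians 32016, 22386 and 32794 in segments 2, 3 and 4), and a difference of 0.92 ± 0.08, adjusted p = 3.71e-05. The sodium pump subunit gene atnb233 (LABE_00061399) was higher by 0.62 ± 0.06, adjusted p = 9.39e-05. Slc26a3 (LABE_00041982, chosen after its values were seen), an exchanger of chloride for bicarbonate, had 392 to 4154 (median 2040) in segment 1, against 34.7 to 572 in the 18 later libraries (medians 142, 174 and 397 in segments 2, 3 and 4) and a difference of 2.90 ± 0.29, adjusted p = 7.88e-05. The carbonic anhydrase CA6 (LABE_00012994), which makes bicarbonate, had 10683 to 38376 (median 28486) in segment 1, against 3528 to 28352 in the later libraries, with 13 later libraries reaching the lowest segment 1 value, and was higher by 0.95 ± 0.13, adjusted p = 0.000556. Of the salt, water and bicarbonate transport list 23 of 69 were higher (33.3%, against 14.2% of all gene models) and 14 lower (20.3%, against 13.1%), and 14 (20.3%, against 2.80%) were above the highest later segment, a count of 9 under quantile normalization. A pair of water channel genes on this list went the other way. Aqp8 (LABE_00033297) had 0 to 2.62 (median 1.62) in segment 1, against 4.32 to 408 in the 18 later libraries (medians 16.5, 142 and 351 in segments 2, 3 and 4), and the difference from the lowest later segment was -2.78 ± 0.62, adjusted p = 0.00825. Without fish 2 this difference was -3.18, and without fish 6 it was -2.29. AQP10 (LABE_00044754, chosen after its values were seen) had 970 to 1821 (median 1551) in segment 1, against 1948 to 3478 in the later libraries, without overlap, and was lower, with a difference of -0.90 ± 0.09, adjusted p = 6.47e-05.

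Guanylin and its receptor belong to the same system, since guanylin released into the gut lumen makes epithelial cells secrete chloride and bicarbonate. GUCA2A (LABE_00009500), the guanylin gene, had 851 to 2334 (median 2005) in segment 1, against 28.2 to 1203 in the 18 later libraries (medians 599, 438 and 53.7 in segments 2, 3 and 4), and a difference of 2.68 ± 0.16, adjusted p = 4.24e-06. The receptor gene GUCY2C was read from a pair of gene models, both chosen after their values were seen. LABE_00037727 had 3951 to 7257 (median 5388) in segment 1, against 1251 to 3863 in the later libraries, without overlap, and was higher by 1.37 ± 0.07, adjusted p = 2.27e-06. LABE_00064364 had 1934 to 2937 (median 2846) in segment 1, against 417 to 1987 in the later libraries, where 2 later libraries reached the lowest segment 1 value, and was higher by 1.25 ± 0.09, adjusted p = 1.14e-05. Ligand and receptor gene models each exceeded the highest later segment, by 1.30, 0.84 and 0.75, with adjusted p = 0.00015, 0.000152 and 0.000414.

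Among gut hormone genes, 1 of the cholecystokinin genes and motilin were highest in segment 1. The gene cckb (LABE_00034484) had 41.8 to 189 (median 144) in segment 1, against 0 to 14.5 in the 18 later libraries (medians 3.47, 0 and 0.314 in segments 2, 3 and 4). All later libraries were below the lowest segment 1 value, and the differences were 5.92 ± 0.45, adjusted p = 1.62e-05 from the mean and 4.70 ± 0.57, adjusted p = 0.000367 from the highest later segment. The segment 1 values were all above the filter value, so segment 1 alone was enough to bring cckb into the test. Its paralogue ccka (LABE_00001570) had 419 to 740 (median 586) in segment 1, against 247 to 1080 in the 18 later libraries (medians 455, 596 and 646 in segments 2, 3 and 4), which overlapped, and its difference of 0.08 ± 0.10, adjusted p = 0.606 did not pass the test. Motilin (LABE_00007846), the hormone of contractions between meals in mammals, had 825 to 1100 (median 1017) in segment 1, against 67.7 to 634 in the 18 later libraries (medians 478, 417 and 129 in segments 2, 3 and 4). No later library reached the lowest segment 1 value, and it was higher by 1.69 ± 0.12, adjusted p = 9.78e-06 than the mean and by 0.98 ± 0.10, adjusted p = 0.000131 than the highest later segment. The motilin receptor gene model (LABE_00040338) was near 0, at 0 to 3.81 in segment 1, against 0 to 7.02 in the later libraries, and was not tested.

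The peptide YY genes, whose hormone slows gut movement and reduces food intake in mammals, were high in segments 1 and 2 and not in segment 1 alone. Gene pyyb (LABE_00049925) had 2420 to 5452 (median 3643) in segment 1, against 0 to 5074 in the 18 later libraries (medians 3499, 114 and 9.83 in segments 2, 3 and 4), and pyya (LABE_00046718) had 216 to 779 (median 573) in segment 1, against 1.25 to 1201 in the 18 later libraries (medians 712, 45.9 and 1.84 in segments 2, 3 and 4). Both were higher than the mean of the later segments (4.44 ± 0.32, adjusted p = 1.01e-05 for pyyb and 3.29 ± 0.31, adjusted p = 5.82e-05 for pyya). Against segment 2 alone the differences were 0.09 (adjusted p = 0.774) and -0.53 (adjusted p = 0.149). The gene npy of neuropeptide Y (LABE_00022765) had 0 to 5.24 in segment 1, against 0 to 14.5 in the later libraries, and it, ghsrb (LABE_00056989) and the leptin genes lepa (LABE_00052950) and lepb (LABE_00004184) were too low to be tested.

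A gene of the relaxin family ran opposite to cckb. Rln3 (LABE_00052570) had 23.2 to 66.6 (median 39.7) in segment 1, against 828 to 6206 in the 18 later libraries (medians 1072, 3792 and 2513 in segments 2, 3 and 4). Every segment 1 library was below every later one, and the difference of -4.70 ± 0.22, adjusted p = 2.09e-06 from the lowest later segment was the largest of that measure among gene models that carry a name. In mammals relaxin-3 is a brain peptide. Of the gut hormone list 12 of 24 were higher and 2 lower, where 14.2% and 13.1% of all gene models were. Above the highest later segment were 3 (12.5%, against 2.80%), and 1 (4.17%, against 2.34%) was below the lowest. The median difference was 0.68. Of the general genes of endocrine cells, such as transcription factors and granule proteins, 4 of 22 were higher (18.2%, against 14.2% of all gene models) and 0 lower (0%, against 13.1%), none was at an extreme, and the median was 0.16. In bulk tissue, fewer cells of a type and less RNA per cell cannot be told apart.

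**Figure D3:**
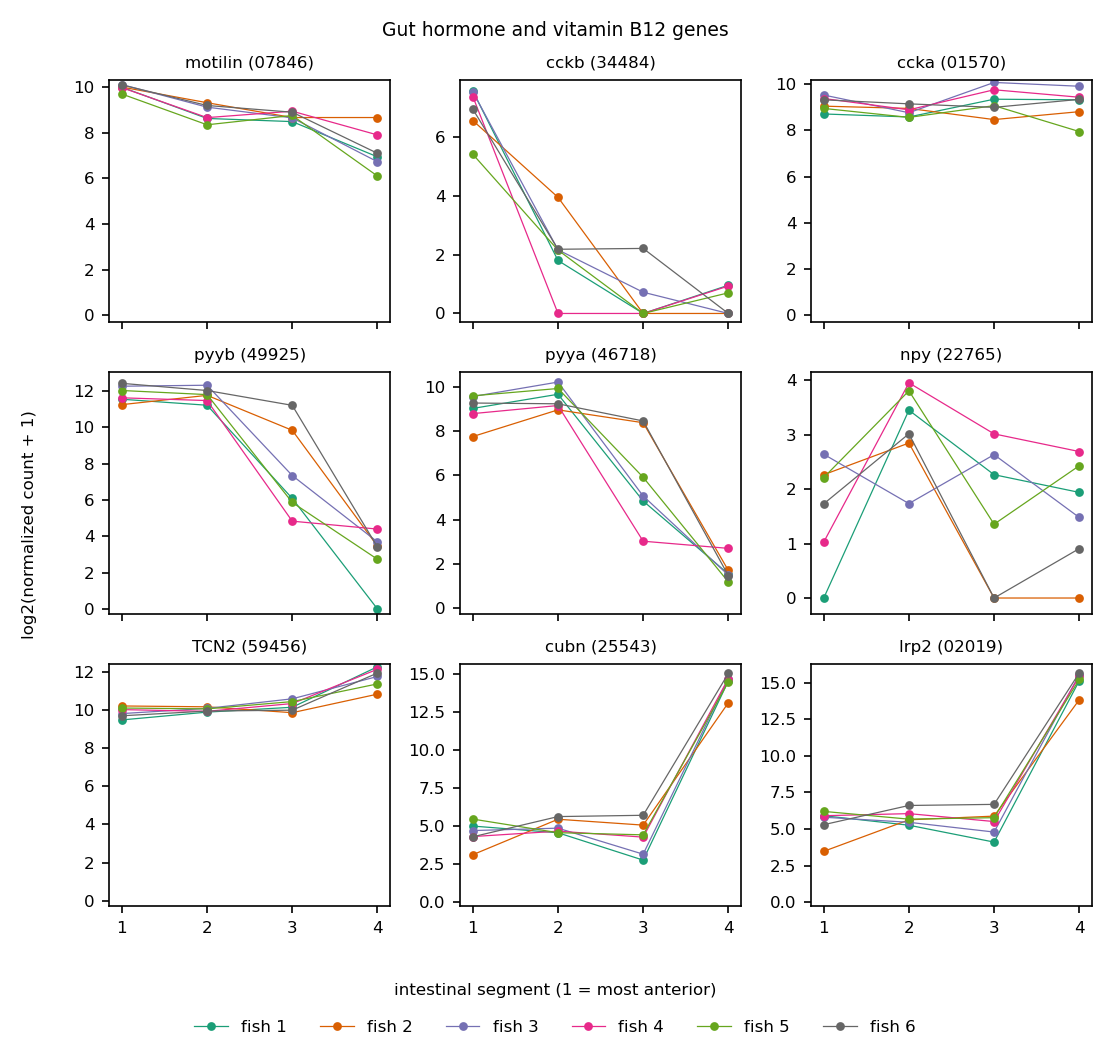
Values of 6 gut hormone and 3 vitamin B12 gene models in the 6 fish, as log2(normalized count + 1) on the vertical axis against the segment on the horizontal axis, each line 1 fish. Motilin and cckb were highest in segment 1, pyyb and pyya were high in segments 1 and 2, ccka overlapped between segments, and TCN2, cubn and lrp2 were highest in segment 4.

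The uptake genes of vitamin B12 were low in segment 1. In mammals transcobalamin 2 carries the vitamin in blood, and cubilin with amnionless takes it up in the ileum. Transcobalamin 2 was read from the gene model named TCN2 in the deposited table (LABE_00059456, chosen after its values were seen), which had 708 to 1176 (median 961) in segment 1, against 921 to 4879 in the 18 later libraries (medians 1017, 1203 and 3659 in segments 2, 3 and 4). It was lower in segment 1 than in segment 4, with a difference of -1.83 ± 0.24, adjusted p = 0.000568. The study gives another gene model (LABE_00042844) as this carrier, and the deposited table names that one Vtcn1, which in mammals is an inhibitor of T cells. This gene model had 1447 to 2672 (median 1980) in segment 1, against 44.5 to 1545 in the 18 later libraries (medians 992, 682 and 97 in segments 2, 3 and 4), with a difference of 2.20 ± 0.19, adjusted p = 3.16e-05 from the mean, and which gene it encodes was not tested. The tcn-like gene tcnl (LABE_00037777) had 21.8 to 2803 (median 969) in segment 1, against 6.38 to 5658 in the later libraries, which overlapped over the whole range, and its difference of -1.23 ± 0.65, adjusted p = 0.19 did not pass the test. The uptake genes were low in segments 1 to 3 and high in segment 4. Cubilin (cubn, LABE_00025543) had 7.61 to 42.7 (median 21.8) in segment 1, against 5.72 to 33648 in the 18 later libraries (medians 26.1, 19.3 and 25085 in segments 2, 3 and 4). The difference of segment 1 from segment 4 was -9.95 ± 0.22, adjusted p = 1.81e-08, and those from segments 2 and 3 were -0.47 and 0.25 (adjusted p = 0.536 and 0.773). Amnionless (amn, LABE_00003530) and lrp2 (LABE_00002019), an endocytic receptor that works with cubilin, were lower in segment 1 than in segment 4, with differences of -7.38 ± 0.23, adjusted p = 1.49e-07 and -9.72 ± 0.20, adjusted p = 1.54e-08. Slc23a1 (LABE_00058622, chosen after its values were seen), a vitamin C transporter, had 4795 to 8185 (median 5827) in segment 1, against 27.4 to 7454 in the 18 later libraries (medians 3216, 967 and 69.9 in segments 2, 3 and 4), and was higher by 3.14 ± 0.18, adjusted p = 3.48e-06. Of the vitamin and retinoid list 15 of 48 were higher (31.2%, against 14.2% of all gene models) and 7 lower (14.6%, against 13.1%).

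Bile acid genes were also divided. ABCB11 (LABE_00036579), the bile salt export pump of liver cells in mammals, had 564 to 3761 (median 1786) in segment 1, against 0.627 to 802 in the 18 later libraries (medians 180, 26.9 and 1.81 in segments 2, 3 and 4). Here 2 later libraries reached the lowest segment 1 value, and the differences were 6.02 ± 0.38, adjusted p = 4.77e-06 from the mean and 2.96 ± 0.39, adjusted p = 0.000559 from the highest later segment. CYP7A1 (LABE_00000787), the rate-limiting enzyme of bile acid synthesis, had 5539 to 39084 (median 8996) in segment 1, against 6.62 to 38388 in the 18 later libraries (medians 4822, 2573 and 34.4 in segments 2, 3 and 4). It was higher by 3.70 ± 0.17, adjusted p = 1.13e-06 than the mean and by 0.67 ± 0.15, adjusted p = 0.00845 than the highest later segment. FGB and TTR of the liver were near 0 in segment 1, and F2 reached 21, as given above. Of the liver list 7 of 20 were higher and 2 lower, where 14.2% and 13.1% of all gene models were, with 4 higher without fish 2 or fish 3 and 3 without fish 6. In segment 1 most of the summed value of that list was CYP7A1 itself. Without it the sums were 2992 to 4220 in segment 1, 2637 to 3791 in segment 2, 2230 to 2858 in segment 3 and 2220 to 4735 in segment 4.

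The genes of bile acid recovery were low at the anterior end. Fabp6 (LABE_00051334), which carries bile acids inside ileal cells, had 72.3 to 487 (median 292) in segment 1, against 127 to 218720 in the 18 later libraries (medians 251, 146725 and 142740 in segments 2, 3 and 4). SLC10A2 (LABE_00014762), the sodium-dependent bile acid transporter that takes them up, had 31.7 to 52.4 (median 43.5) in segment 1, against 40.6 to 25100 in the 18 later libraries (medians 66.8, 9098 and 15533 in segments 2, 3 and 4). Segments 1 and 2 were low and segments 3 and 4 high for both, apart from segment 2 of fish 6 with 70032 and 5777. The differences from the mean were -6.44 ± 0.32, adjusted p = 1.64e-06 and -5.91 ± 0.29, adjusted p = 1.68e-06, and without fish 6 they were -6.02 and -5.53. Neither was below the lowest later segment, with adjusted p = 0.309 and 0.127. A gene model named PLB1 (LABE_00025919), after a brush border phospholipase, had 29.6 to 77.3 (median 47.9) in segment 1, against 72.3 to 39581 in the 18 later libraries (medians 144, 24432 and 5716 in segments 2, 3 and 4) and a difference of -6.22 ± 0.27, adjusted p = 1e-06. It was below the lowest later segment, with a difference of -2.53 ± 0.77, adjusted p = 0.0328, a call that was lost without fish 1, 4 or 5 (adjusted p = 0.0547, 0.0542 and 0.084, in a range of 0.0128 to 0.119 over the alternatives). Whether other gene models of this name shared the pattern is not reported here. TMIGD1 (LABE_00053039), a cell adhesion protein of epithelia, and tmem236 (LABE_00018946), a membrane protein, were lower, with differences of -5.43 ± 0.30, adjusted p = 2.39e-06 and -4.74 ± 0.42, adjusted p = 3.59e-05.

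Peptide uptake was read from gene models named after SLC15A1, which encodes the peptide transporter PepT1. LABE_00037938 had 42020 to 87447 (median 61173) in segment 1, against 667 to 75340 in the 18 later libraries (medians 50487, 31332 and 790 in segments 2, 3 and 4) and a difference of 2.23 ± 0.14, adjusted p = 5.79e-06. LABE_00017465, chosen after its values were seen, had 9846 to 23290 (median 16690) in segment 1, against 42.6 to 22269 in the 18 later libraries (medians 13525, 10982 and 64 in segments 2, 3 and 4) and a difference of 2.65 ± 0.17, adjusted p = 6.01e-06. The remaining gene model to which the deposited table gives this name, LABE_00049604, had 38.2 to 137 (median 67.9) in segment 1, against 87 to 8714 in the 18 later libraries (medians 190, 3546 and 6332 in segments 2, 3 and 4) and a difference of -4.70 ± 0.21, adjusted p = 1.13e-06. It was thus lower in segment 1, unlike the others of this name, and whether its name is that of the right family member was not tested. Of the protein digestion and amino acid transport list 30 of 87 were higher (34.5%, against 14.2% of all gene models) and 17 lower (19.5%, against 13.1%), and 13 (14.9%, against 2.80%) were above the highest later segment, with a median difference of 0.02.

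Fat absorption genes were mostly higher in segment 1 than in the mean of the later segments, and rarely above the highest of them. Of 89 tested, 50 (56.2%, against 14.2% of all gene models) were higher and 7 (7.87%, against 13.1%) lower, but 4 (4.49%, against 2.80%) were above the highest. APOB (LABE_00031499), the backbone of the lipoproteins in which fat leaves the cell, had 299050 to 600790 (median 522645) in segment 1, against 25767 to 516160 in the 18 later libraries (medians 449055, 282085 and 34062 in segments 2, 3 and 4). It was higher by 1.52 ± 0.16, adjusted p = 8.98e-05 than the mean, whereas its difference from the highest later segment of 0.10 ± 0.13, adjusted p = 0.566 did not pass. The apolipoprotein gene models apoeb (LABE_00047833 and LABE_00047834) had segment 1 medians of 138100 and 140485, against segment 2 medians of 154450 and 162795, and were higher than the mean by 2.05 ± 0.23, adjusted p = 0.000152 and 1.29 ± 0.14, adjusted p = 0.000125. The median difference of the list was 0.01 from segment 2, 0.30 from segment 3 and 1.59 from segment 4.

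Cholesterol synthesis, sugar and microvillus genes were more often higher than lower in segment 1. Of 30 cholesterol synthesis genes, 18 (60.0%, against 14.2% of all gene models) were higher and none was lower. With edgeR or DESeq2 on the recovered reads 8 were higher. With all fish, 5 were above the highest later segment (3 without fish 2 or fish 5, 2 without fish 3, without fish 6 or under quantile normalization, and 9 without fish 4). Genes of the last steps of the pathway were higher. Sc5d (LABE_00057134) had 2834 to 13030 (median 5229) in segment 1, against 380 to 10310 in the 18 later libraries (medians 3736, 3044 and 434 in segments 2, 3 and 4) and a difference of 1.43 ± 0.13, adjusted p = 3.68e-05. The gene dhcr7 (LABE_00056726) was higher by 1.38 ± 0.13, adjusted p = 6.3e-05, with 3274 to 10489 (median 4628) in segment 1, against 307 to 8070 in the later libraries. Of the sugar list 23 of 59 were higher (39.0%, against 14.2% of all gene models) and 5 lower (8.47%, against 13.1%), and 8 (13.6%, against 2.80%) were above the highest, a count of 3 without fish 4, 4 without fish 5 or under quantile normalization and 5 without fish 6. SLC5A1 (LABE_00008799), the sodium glucose transporter, had 19828 to 23427 (median 21454) in segment 1, against 4809 to 19936 in the 18 later libraries (medians 17997, 13516 and 7135 in segments 2, 3 and 4) and was higher by 0.83 ± 0.08, adjusted p = 5.48e-05. LCT (LABE_00037610), lactase, had 7522 to 20875 (median 11950) in segment 1, against 33.1 to 21943 in the 18 later libraries (medians 12790, 14938 and 138 in segments 2, 3 and 4), where segments 1 to 3 overlapped, and a difference of 1.90 ± 0.20, adjusted p = 9e-05. Of the microvillus genes 24 of 35 were higher (68.6%, against 14.2% of all gene models) and 1 lower (2.86%, against 13.1%). Only 4 (11.4%, against 2.19%) were higher than segment 2, and 4 (11.4%, against 2.80%) were above the highest later segment, with 3 to 7 without single fish. The median differences of this list were 0.19, 0.44 and 0.68 from segments 2, 3 and 4. Higher than the mean were 18 to 22 without single fish and 18 under quantile normalization. Under that scaling the calls of Pls1, CDHR2, EZR and PDZK1, genes of the microvillus core and its membrane anchors with high levels, were lost at differences of 0.01, 0.02, 0.04 and 0.12 (adjusted p = 0.923, 0.91, 0.687 and 0.351).

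Many enzymes that clear foreign compounds were higher in segment 1 than in any later segment. Of 82 tested members of the xenobiotic metabolism list, 44 (53.7%, against 14.2% of all gene models) were higher than the mean and 13 (15.9%, against 13.1%) were lower. Above the highest later segment were 20 (24.4%, against 2.80%), a count of 12 under quantile normalization. Mgst3 (LABE_00004137), a glutathione transferase of membranes, had 31758 to 47570 (median 41846) in segment 1, against 5632 to 27477 in the 18 later libraries (medians 26042, 13060 and 6706 in segments 2, 3 and 4), without overlap, and was above the highest later segment by 0.66 ± 0.08, adjusted p = 0.000352. The cytochrome P450 gene cyp3a40 (LABE_00047508) had 19790 to 31315 (median 26707) in segment 1, against 2986 to 22301 in the 18 later libraries (medians 19872, 14460 and 3389 in segments 2, 3 and 4). It was higher than the mean of the later segments by 1.28 ± 0.11, adjusted p = 2.67e-05. Its relative cyp3a30 (LABE_00053403) was higher than that mean by 1.25 ± 0.11, adjusted p = 3.81e-05. Enzymes of urate breakdown, chosen after their values were seen, shared this order. The gene urad (LABE_00003300) had 127 to 206 (median 167) in segment 1, against 5.37 to 53.8 in the 18 later libraries (medians 44.7, 25.4 and 21.6 in segments 2, 3 and 4), without overlap, and urah (LABE_00000370) had 76.7 to 181 (median 98.6) in segment 1, against 0 to 97.7 in the 18 later libraries (medians 48.7, 17 and 0 in segments 2, 3 and 4), with differences of 2.59 ± 0.28, adjusted p = 0.000111 and 3.51 ± 0.41, adjusted p = 0.000202.

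Transcription factors separated an anterior from a posterior set. The endodermal factors gata4, gata5-a and gata6-a, of which gata4 and gata5-a were chosen after their values were seen, and hnf4a, a factor of enterocytes and liver cells, were higher in segment 1. The gene gata4 (LABE_00042570) had 600 to 785 (median 685) in segment 1, against 0 to 712 in the 18 later libraries (medians 546, 117 and 7.76 in segments 2, 3 and 4) and a difference of 3.40 ± 0.29, adjusted p = 3.26e-05. For gata5-a (LABE_00093060) and gata6-a (LABE_00019064) the differences were 2.08 ± 0.23, adjusted p = 0.000128 and 1.17 ± 0.08, adjusted p = 6.8e-06, with segment 4 medians of 47.5 and 1555 where those of segment 1 were 3002 and 8280. The difference of hnf4a (LABE_00047716) was 0.68 ± 0.12, adjusted p = 0.00214. Of these 4, gata6-a alone was above the highest later segment (0.36 ± 0.09, adjusted p = 0.0162), whereas gata4 gave an adjusted p of 0.0801. Prdm16 (LABE_00071028, chosen after its values were seen), a zinc finger factor, had 28.2 to 73.3 (median 46) in segment 1, against 0 to 25.6 in the 18 later libraries (medians 12.1, 6.68 and 2.24 in segments 2, 3 and 4), without overlap, and was above the highest later segment by 1.78 ± 0.30, adjusted p = 0.00233. PDX1 (LABE_00003301), a homeobox gene of the duodenum and pancreas in mammals, had 6.37 to 33.3 (median 13.9) in segment 1, against 3.23 to 148 in the 18 later libraries (medians 11, 87.8 and 32.3 in segments 2, 3 and 4) and was lower in segment 1, with a difference of -1.28 ± 0.29, adjusted p = 0.00855. Of the regional factors 16 of 61 were higher (26.2%, against 14.2% of all gene models) and 14 lower (23.0%, against 13.1%).

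HOX genes were lower in segment 1 in most cases. Of 23 tested, 17 (73.9%, against 13.1% of all gene models) were lower and 3 (13.0%, against 14.2%) were higher, with a median difference of -2.38. Below the lowest later segment were 6 (26.1%, against 2.34%). The median differences from single segments were -0.70, -2.06 and -2.90 for segments 2, 3 and 4. The genes hoxa9, hoxa10 and hoxa13a were near 0 in segment 1 and, apart from fish 6, in segment 2, where fish 6 had 201, 289 and 137. The gene hoxa13a (LABE_00032184) had 0 to 7.86 (median 1.67) in segment 1, against 0 to 2715 in the 18 later libraries (medians 6.52, 486 and 2312 in segments 2, 3 and 4) and a difference of -5.89 ± 0.47, adjusted p = 2.17e-05, and hoxa10 (LABE_00032182) and hoxa9 (LABE_00032178) were lower, with differences of -5.78 ± 0.33, adjusted p = 3.36e-06 and -5.74 ± 0.52, adjusted p = 4.28e-05. Without fish 6 the differences of hoxa13a, hoxa10 and hoxa9 were -5.31, -5.56 and -5.17. Genes of middle groups, chosen after their values were seen, were already higher in segment 2. The gene hoxc6a (LABE_00018817) had 0 to 2.73 (median 0) in segment 1, against 3.55 to 29.9 in the 18 later libraries (medians 7.07, 13.7 and 6.93 in segments 2, 3 and 4), without overlap, and hoxb5b (LABE_00047046) had 1.23 to 14 (median 5.29) in segment 1, against 15.2 to 91.9 in the 18 later libraries (medians 36.4, 23.1 and 33.9 in segments 2, 3 and 4), also without overlap. They were below the lowest later segment, with differences of -2.34 ± 0.48, adjusted p = 0.00553 and -1.73 ± 0.46, adjusted p = 0.0187. A further posterior factor was pax2a (LABE_00039495), a homeodomain gene of the paired box family. The gene pax2a had 2.32 to 38 (median 26) in segment 1, against 27.9 to 671 in the 18 later libraries (medians 157, 319 and 379 in segments 2, 3 and 4), and its difference from the lowest later segment was -2.64 ± 0.59, adjusted p = 0.00835. Without fish 6, which had the lowest segment 1 value, this difference was -2.01.

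**Figure D4:**
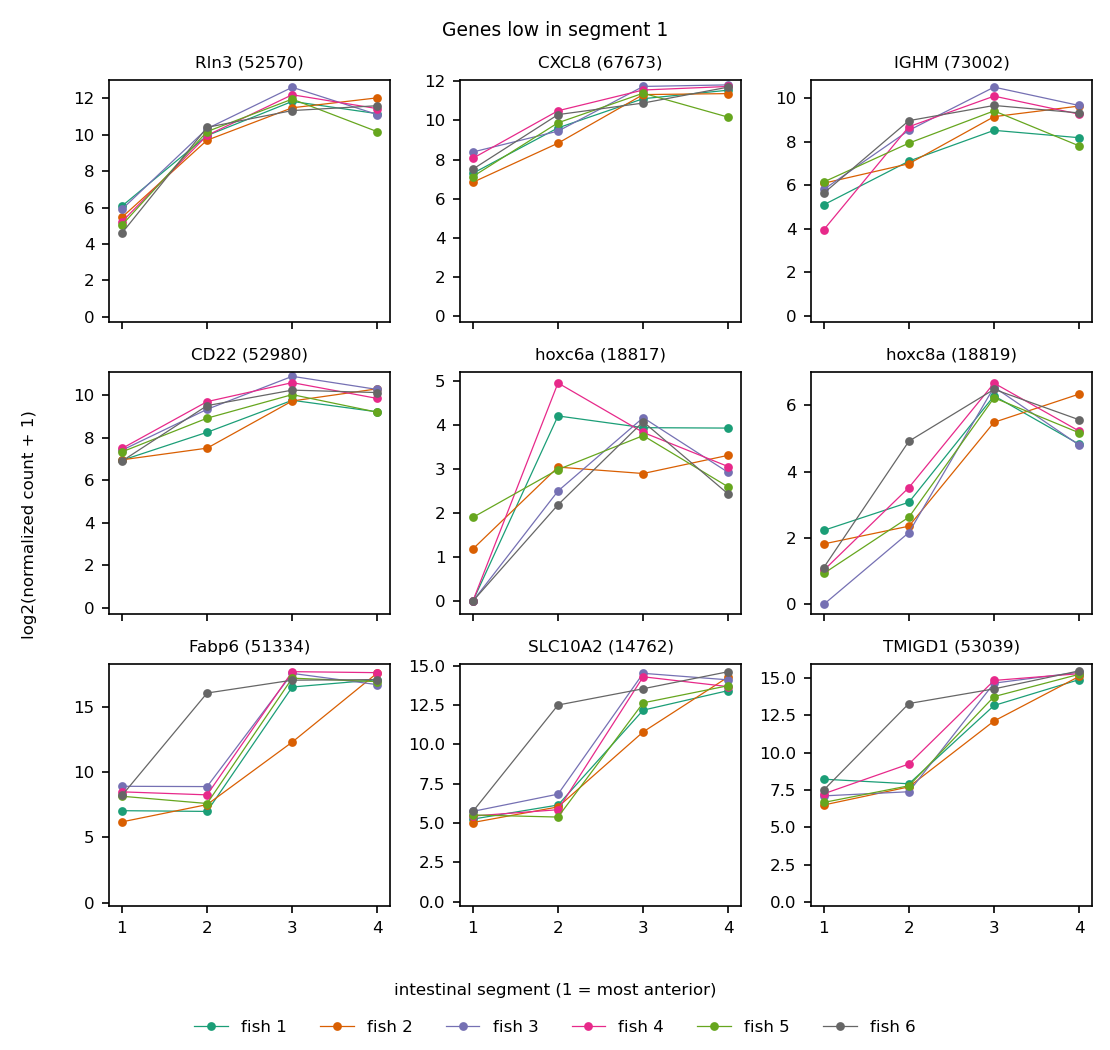
Values of 9 gene models that were low in segment 1, with the last 5 digits of each ID in its panel title, as log2(normalized count + 1) on the vertical axis against the segment on the horizontal axis, each line 1 fish. Rln3, CXCL8, IGHM, CD22, hoxc6a and hoxc8a were already higher in segment 2, whereas Fabp6, SLC10A2 and TMIGD1 stayed low there except in fish 6.

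Many immune genes were lower in segment 1 than in any later segment. Of 115 gene models of the lymphocyte and macrophage list tested, 70 (60.9%, against 13.1% of all gene models) were lower than the mean of the later segments. Higher were 6 (5.22%, against 14.2%). Below the lowest later segment were 35 (30.4%, against 2.34% of all gene models), and 29 to 36 were without single fish. Gene models of 1 name were counted singly in this list, as in the others, and whether they share reads was not tested. The summed value of the list was 167385 to 191171 in segment 1, 173466 to 246393 in segment 2, 217949 to 259861 in segment 3 and 236991 to 396532 in segment 4. An immunoglobulin heavy chain gene model named IGHM (LABE_00073002) had 14.5 to 70 (median 51.8) in segment 1, against 126 to 1457 in the 18 later libraries (medians 305, 748 and 627 in segments 2, 3 and 4), without overlap, and was below the lowest later segment, with a difference of -2.56 ± 0.42, adjusted p = 0.00173. The chemokine gene CXCL13 (LABE_00064073), whose product draws B cells into follicles in mammals, had 12.7 to 39.4 (median 16.4) in segment 1, against 30 to 1562 in the 18 later libraries (medians 131, 458 and 760 in segments 2, 3 and 4) and was below the lowest, with a difference of -2.56 ± 0.34, adjusted p = 0.000555. The following were chosen after their values were seen. CD22 (LABE_00052980), an inhibitory receptor of B cells, had 119 to 180 (median 143) in segment 1, against 182 to 1902 in the 18 later libraries (medians 567, 1130 and 1021 in segments 2, 3 and 4), with a difference from the lowest of -1.70 ± 0.23, adjusted p = 0.000598. SYK (LABE_00046183), the kinase that B cell receptors signal through, had 478 to 591 (median 503) in segment 1, against 619 to 3176 in the 18 later libraries (medians 1108, 1964 and 2245 in segments 2, 3 and 4), with -1.02 ± 0.18, adjusted p = 0.00269. CXCL8 (LABE_00067673), a chemokine that draws neutrophils, had 114 to 335 (median 169) in segment 1, against 458 to 3611 in the 18 later libraries (medians 866, 2624 and 3164 in segments 2, 3 and 4), with -2.22 ± 0.20, adjusted p = 7.21e-05. None of the 18 later libraries was at or below the highest segment 1 value for CD22, SYK or CXCL8.

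The immune set did not move as a block. The Cd74 gene models (LABE_00038649 and LABE_00050764), of antigen presentation, differed little, by -0.24 ± 0.08, adjusted p = 0.044 and -0.28 ± 0.08, adjusted p = 0.0247. Their calls were lost without fish 4, 5 or 6 (adjusted p = 0.0959, 0.0978 and 0.129, and 0.0539, 0.0702 and 0.0823), and for the first also without fish 3 (adjusted p = 0.102). Over the alternatives the adjusted p ranged over 3.87e-05 to 0.129 and 3.5e-06 to 0.0823. MRC1 (LABE_00048734), the mannose receptor, had 41.9 to 131 (median 83.1) in segment 1, against 45.8 to 76104 in the 18 later libraries (medians 92.8, 78.2 and 67029 in segments 2, 3 and 4), so that segment 4 alone set it apart (-9.44 ± 0.21, adjusted p = 1.81e-08 against segment 4, and -0.23 with adjusted p = 0.66 against segment 2). In the opposite direction, csf1r2 (LABE_00058610, chosen after its values were seen), a receptor of macrophages, had 4628 to 7032 (median 5316) in segment 1, against 2268 to 4104 in the 18 later libraries (medians 3681, 2582 and 2720 in segments 2, 3 and 4), without overlap, and was higher by 0.88 ± 0.08, adjusted p = 6.04e-05.

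Many lysosome and cell cycle genes were lower in segment 1 than in the mean of the later segments. Of the lysosome genes 6 of 71 were higher (8.45%, against 14.2% of all gene models) and 32 lower (45.1%, against 13.1%), and 4 (5.63%, against 2.34%) were below the lowest later segment. The median differences of the list were 0.01, -0.06 and -0.73 from segments 2, 3 and 4. CTSB (LABE_00042575), the lysosomal protease cathepsin B, had 81.4 to 156 (median 150) in segment 1, against 74.6 to 88297 in the 18 later libraries (medians 138, 115 and 68802 in segments 2, 3 and 4), and was lower in segment 1 than in segment 4, with a difference of -8.82 ± 0.23, adjusted p = 5.92e-08. Of 44 cell cycle genes 33 (75.0%, against 13.1% of all gene models) were lower and none was higher. Below the lowest later segment were 8 (18.2%, against 2.34%), and 19 without fish 1. There were 5 without fish 5, without fish 6 or without the filter on low values. The median differences of the cell cycle list were -0.28, -0.51 and -0.97 from segments 2, 3 and 4. MKI67 (LABE_00049929), a marker of dividing cells, had 1177 to 2397 (median 1872) in segment 1, against 1456 to 3129 in the 18 later libraries (medians 2224, 2388 and 2798 in segments 2, 3 and 4), overlapping in part, and was lower, with a difference of -0.49 ± 0.11, adjusted p = 0.00769. The summed value of the cell cycle list reached 82341 in segment 4, against at most 22618 in segment 1, and ccnb1 (LABE_00020522), a mitotic cyclin, reached 13296 in that segment, against 422 to 855 in segment 1. In segment 4 of fish 1 and fish 5, ccnb1 had 7215 and 13296, and ACTN2 (LABE_00034234), an actinin of striated muscle, had 4190 and 9007, where no other segment 4 library exceeded 1463 and 454. Summed striated muscle genes were 5604 to 11244 in segment 1, against 10017 to 231156 in segment 4. Of that list 8 of 26 (30.8%, against 13.1% of all gene models) were lower in segment 1, and 5 without fish 5. The part of either in the other was not tested.

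**Figure D5:**
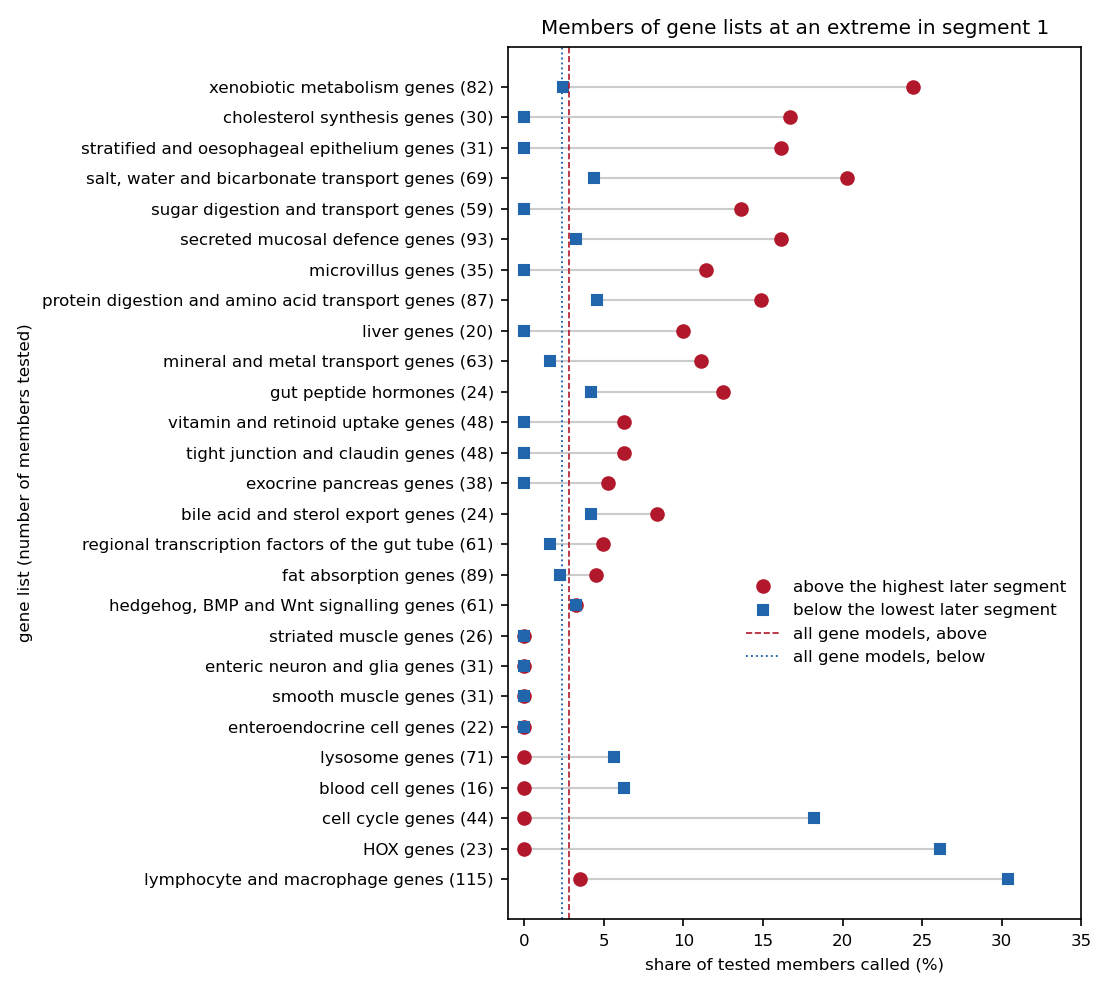
Share of the tested members of gene lists, in percent on the horizontal axis, that were above the highest later segment (red circles) or below the lowest (blue squares) in segment 1, with the number of members tested beside each list name. Lists with fewer than 16 tested members and lists chosen after values were seen are not drawn. The dashed and dotted lines give the shares over all gene models, 2.80% and 2.34%. Xenobiotic metabolism had the highest share above (24.4%) and lymphocyte and macrophage genes the highest below (30.4%).

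Genes of muscle and nerve of the gut wall were called about as often as all gene models or less. Of the smooth muscle genes 3 of 31 were higher (9.68%, against 14.2% of all gene models) and 2 lower (6.45%, against 13.1%), and the sums overlapped, with 80503 to 101334 in segment 1, 74596 to 126099 in segment 2, 76323 to 98163 in segment 3 and 84877 to 109507 in segment 4. Of the enteric neuron and glia genes 4 of 31 were higher (12.9%, against 14.2% of all gene models) and 1 lower (3.23%, against 13.1%), with 2 higher without fish 2 or fish 6, 2 lower without fish 3 and 0 lower without fish 4 or fish 5. Ret (LABE_00056451), the receptor that guides gut nerve precursors, had 205 to 257 (median 245) in segment 1, against 124 to 281 in the later libraries and was higher, with a difference of 0.47 ± 0.10, adjusted p = 0.00537. Of the genes shared by stratified and oesophageal epithelium 14 of 31 were higher (45.2%, against 14.2% of all gene models) and 4 lower (12.9%, against 13.1%). Only 1 (3.23%, against 2.19%) was higher than segment 2. Above the highest later segment were 5 (16.1%, against 2.80%), and 1 to 6 without single fish. Among those higher than the mean was agr2 (LABE_00041039), which folds mucins in goblet cells, higher by 0.79 ± 0.07, adjusted p = 4.49e-05. Another was jup (LABE_00033793), plakoglobin of cell junctions, higher by 0.37 ± 0.07, adjusted p = 0.00361. Under quantile normalization the difference of jup was 0.15 (adjusted p = 0.122). The keratin gene Krt17 (LABE_00051633) went the other way, with limma differences of -1.34 without fish 2 and -1.02 without fish 6 (adjusted p = 0.000195 and 0.00594). Of the hedgehog, BMP and Wnt signalling genes 11 of 61 were higher (18.0%, against 14.2% of all gene models) and 8 lower (13.1%, against 13.1%), shares near those of all gene models, with 7 higher without fish 6 and 6 with edgeR. On this list, rspo3 (LABE_00001597), a secreted enhancer of Wnt signalling, had 7366 to 10276 (median 8453) in segment 1, against 2864 to 7263 in the 18 later libraries (medians 6426, 4409 and 3672 in segments 2, 3 and 4), without overlap, and was above the highest later segment by 0.40 ± 0.07, adjusted p = 0.00287. Its receptor gene lgr4 (LABE_00013497) was higher by 0.70 ± 0.11, adjusted p = 0.000923 and Tcf7l2 (LABE_00019567), a transcription factor of the same pathway, was lower, with a difference of -0.74 ± 0.11, adjusted p = 0.000933.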

How the data were processed

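RNA from 4 intestinal segments of 6 fish was sequenced by the authors, who trimmed the reads with cutadapt and sickle, checked them with FastQC 0.9.2, aligned them with TopHat2 to their own assembly and used featureCounts of Subread to count reads for each gene model. The deposited values are the authors' normalized counts from DESeq2, a signal in which the reads of each library are scaled by its size factor. The sources used here give neither the other versions nor the strand setting. After the scaling was undone, 94.51% to 99.31% of values per library were whole reads within 0.05, and these reads entered the count tests. The table held 27392 gene models, of which 4221 are named unknown, and 1 line that names none and was dropped.

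Differences of log2(value + 1) within fish were tested with limma 3.58.1 in R 4.3.3 (trend on the mean, not robust), and the script was tested on simulated data. Fish form true blocks, since each gave all 4 segments: around the segment means, the average correlation was 0.435 between libraries of 1 fish (0.157 for the lowest pair). Between libraries that shared neither fish nor segment it was -0.0864. Taking values around the segment means pushes this second average below 0 by construction, so it adds nothing to the first. Alternatives changed the pseudocount (0.5 or 5), the filter, the scaling (quantile, or TMM on recovered reads), the block and the test (edgeR 4.0.16 and DESeq2 1.42.0 on recovered reads), or left out each fish. Genes described come from the 12 gene models with the largest called difference in each direction and 1 sign in all fish, the 10 largest called by the highest and lowest measures, up to 4 called members of each list with the highest mean, and the gut hormone and vitamin B12 genes that the paper ties to a gene model. Others are said to be chosen after their values were seen. Some gene models that the rule picks are not reported here. The members, the lists and this rule were chosen with earlier results of these data known. List shares are set beside the same share over all gene models, with no test of the list. No sequence or position is given, since the reference table held no entry for these gene models.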

Additional observations from a re-analysis of the deposited data

Results flagged for a closer look

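For 48 gene models chosen by the rule, Dixon's gap ratio was taken over the 6 fish in each segment and, where tested, over the 6 differences. The ratio is the gap of the highest or lowest fish to its nearest neighbour on the log2(value + 1) scale, divided by the whole range. It was above Dixon's 95% critical value for 6 values in 36 of 202 groups (17.8%). Chance flags about 1 group in 20, and gene models that move together are not independent. Fish 2 was the outlying fish in 16 groups, fish 6 in 15, fish 5 in 3 and fish 1 and fish 4 in 1 each, so that fish 2 or 6 made 31 of 36.

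Fish 2 had low values in segments 1, 3 and 4, and a high value for PLB1 in segment 4. In segment 1, fish 2 was far below the other fish for lrp2 (LABE_00002019, value 10.1, ratio 0.666), Olfm4 (LABE_00009046, value 5595, ratio 0.691), OLFM4 (LABE_00009047, value 8681, ratio 0.683) and CUZD1 (LABE_00026701, value 26894, ratio 0.701). In segment 3, fish 2 was far below the other fish for hoxa9 (LABE_00032178, value 98.7, ratio 0.685), hoxa10 (LABE_00032182, value 134, ratio 0.661), Aqp8 (LABE_00033297, value 7.51, ratio 0.731), Fabp6 (LABE_00051334, value 5135, ratio 0.782) and Nuclear factor 7, ovary (LABE_00053443, value 85.9, ratio 0.734). In segment 4, fish 2 was far below the other fish for lrp2 (LABE_00002019, value 14715, ratio 0.707), amn (LABE_00003530, value 1931, ratio 0.721), Rab32 (LABE_00006530, value 990, ratio 0.703), tmem236 (LABE_00018946, value 867, ratio 0.924), cubn (LABE_00025543, value 8815, ratio 0.711) and hoxa13a (LABE_00032184, value 1300, ratio 0.635). In segment 4, fish 2 was far above the other fish for PLB1 (LABE_00025919, value 16630, ratio 0.703).

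Fish 6 had high values in segment 2 for genes of segments 3 and 4, and in segment 3 for genes that were highest in segment 1. In segment 1, fish 6 was far below the other fish for pax2a (LABE_00039495, value 2.32, ratio 0.767). In segment 2, fish 6 was far above the other fish for SLC10A2 (LABE_00014762, value 5777, ratio 0.796), hoxa10 (LABE_00032182, value 289, ratio 0.774), SLC15A1 (LABE_00049604, value 1488, ratio 0.635), Fabp6 (LABE_00051334, value 70032, ratio 0.790) and TMIGD1 (LABE_00053039, value 9930, ratio 0.686). In segment 3, fish 6 was far above the other fish for MEP1B (LABE_00001277, value 7419, ratio 0.692), OVCH2 (LABE_00007043, value 8817, ratio 0.858), Olfm4 (LABE_00009046, value 1291, ratio 0.745), OLFM4 (LABE_00009047, value 1938, ratio 0.722), CUZD1 (LABE_00026701, value 5528, ratio 0.751) and Chia (LABE_00056104, value 32043, ratio 0.842). Its difference from the mean of the later segments was the lowest of the 6 for SLC10A2 (LABE_00014762, -7.82, ratio 0.634), Fabp6 (LABE_00051334, -8.55, ratio 0.668) and Chia (LABE_00056104, 4.31, ratio 0.803).

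The remaining cases were spread over other fish. In segment 3, fish 5 was the lowest for LNX2 (LABE_00003303, value 10.1, ratio 0.643). In segment 1, fish 5 was the lowest for motilin (LABE_00007846, value 825, ratio 0.676). For Nuclear factor 7, ovary (LABE_00053443) the difference of fish 4 was -7.52, the lowest of the 6 (ratio 0.824). In segment 3, fish 1 was the highest for DMBT1 (LABE_00056301, value 183, ratio 0.654). In segment 4, fish 5 was the lowest for Ig heavy chain C region, secreted form (Fragment) (LABE_00070904, value 21.3, ratio 0.631). Explanations were not tested.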

How the results depend on the processing

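Each count of calls was repeated under the alternatives, and 121 of 138 such counts stayed within 1.5 times. The exceptions lay in the comparisons with segment 2 or segment 3 and in the count below the lowest. Against segment 2, 428 gene models were higher and 319 lower. Without the filter on low values these counts were 53 and 18, and with no replicate block they were 39 and 93. Leaving out 1 fish gave 196 to 538 higher and 97 to 443 lower against segment 2, 1209 to 1926 higher and 1037 to 1587 lower against segment 3, and 256 to 497 below the lowest, of which fewer fish in the fit is a part by construction. Against the mean, without the replicate block 1850 were higher and 1954 lower, with fish as a block term over 24 libraries 2871 and 2992, with edgeR 2805 and 2842 and with DESeq2 3057 and 3145, and leaving out 1 fish gave 2099 to 2594 and 1813 to 2348. Of 3310 values of the chosen gene models under the alternatives, 3180 kept direction and side of the threshold, 128 (in 39 of 192 results) kept direction but not the call, and 2 turned: under quantile normalization the heavy ferritin subunit (LABE_00013512) had -0.05 and ANPEP (LABE_00049656) had -0.08, neither called. The cause was not tested. Of 1740 list counts 1602 stayed within 1.5 times. Gene models near the filter and low HOX or immunoglobulin genes rest on few reads, where log2(value + 1) understates a change.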

Other observations

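Genes of the mitochondrial respiratory chain and of ATP synthase, a list chosen after values were seen, were more often higher than lower in segment 1. Of 101 tested subunits, 66 (65.3%, against 14.2% of all gene models) were higher than the mean of the later segments and 1 was lower. Without single fish, 48 to 61 were higher. Above the highest later segment were 21 (20.8%, against 2.80%), and 11, 10, 11 and 13 without fish 1, 3, 5 and 6. The median difference of the list was 0.29, with 0.25, 0.44 and 0.22 against segments 2, 3 and 4, so that many subunits moved by a small amount. This list and the next were counted again only without single fish, and not under quantile normalization, edgeR or DESeq2.

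Genes of the endoplasmic reticulum translocon and of protein folding, a list chosen in the same way, gave fewer calls. Of 66 tested, 17 (25.8%, against 14.2% of all gene models) were higher and 1 (1.52%, against 13.1%) lower, with a median difference of 0.14.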
